A study of Homo sapiens with 12 samples.

Results

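The genes described here are 10 regulators of the integrated stress response: the transcription factors ATF4, ATF5, CEBPB, CEBPG and DDIT3 (which encodes CHOP), the pseudokinase gene TRIB3, the phosphatase subunit genes PPP1R15A (GADD34) and PPP1R15B (CReP), and the kinase genes EIF2AK3 (PERK) and EIF2AK4 (GCN2). Their rows were found by gene symbol among the 59577 genes of the deposited table; the symbols were fixed for their role, with no threshold on a measured value but with earlier results of these data known. All 10 were among the 14520 genes with a mean of at least 1 TPM (a transcript abundance per length, on a common scale for each sample) over the samples.

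RNA came from H1299, a long-established human lung carcinoma cell line of the non-small cell type, labelled as lung adenocarcinoma. The hyperoxia group (n = 6) was kept for 24 h under 60% O2, 5% CO2 and 35% N2, in a gas incubator used to imitate supplemental oxygen. The normoxia group (n = 6) was kept under 21% O2, 5% CO2 and 74% N2. No allele, transgene or further agent is named for either group. Whether the samples are separate cultures is not stated, and p-values reflect a spread between samples that may be technical.

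In this response, kinases that sense different stresses phosphorylate the alpha subunit of the initiation factor eIF2. PERK senses unfolded proteins in the endoplasmic reticulum, GCN2 senses uncharged tRNA, PKR senses double-stranded RNA and HRI senses heme shortage. Phosphorylation lowers protein synthesis in general, while the ATF4 and ATF5 mRNAs, which carry upstream open reading frames, are translated more. ATF4 pairs with C/EBP factors and switches on genes of amino acid supply, CHOP and TRIB3. GADD34 and CReP bring the phosphatase PP1 to eIF2 and reverse the phosphorylation. Much of this control acts on translation and on phosphorylation, neither of which was measured here: every value below is an mRNA level.

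At 60% oxygen the 10 genes did not move as a block. PPP1R15A and ATF5 rose, CEBPG, CEBPB and ATF4 fell, and DDIT3, TRIB3, PPP1R15B, EIF2AK3 and EIF2AK4 did not pass the test. The test was limma on log2(TPM + 1) over all 14520 genes, with Benjamini-Hochberg adjustment and a threshold of 0.05. Of all tested genes 17.3% passed it, with 11.7% higher in hyperoxia and 5.63% lower in hyperoxia. Hyperoxia and normoxia values did not overlap for 3 of the 10 genes (PPP1R15A, ATF5 and CEBPG), against 8.78% of all tested genes (hyperoxia above normoxia in 6.2%, below in 2.58%). The median log2 fold change of the 10 genes was -0.10, beside 0.03 for all tested genes. The count of 5 was 3 without normoxia replicate 5 and likewise without hyperoxia replicate 2, since ATF4 and CEBPB lost their calls.

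**Figure D1:**
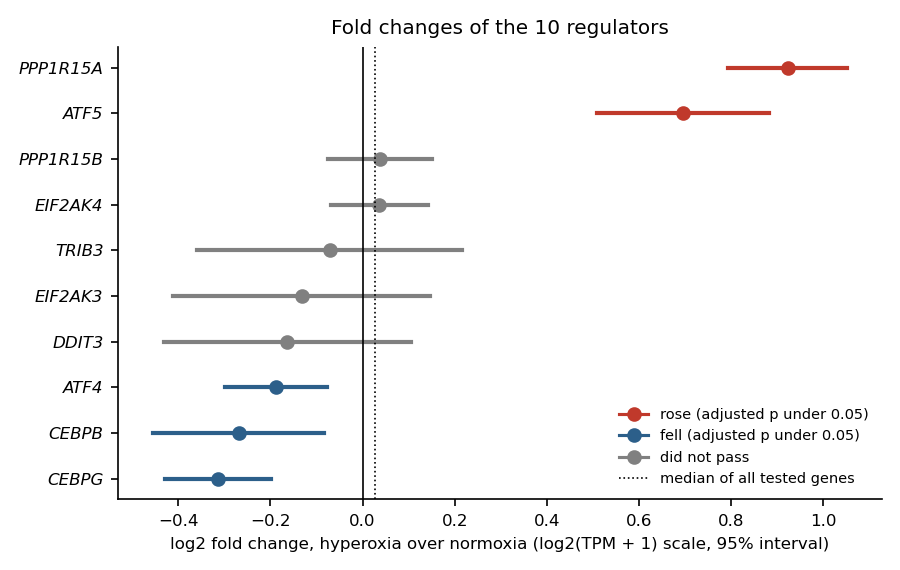
The horizontal axis gives the log2 fold change of hyperoxia over normoxia on the log2(TPM + 1) scale for each of the 10 regulators, with its 95% confidence interval from limma; the dotted line is the median of all tested genes (0.03). PPP1R15A (0.92) and ATF5 (0.70) lie to the right of all others, and the intervals of DDIT3, TRIB3, PPP1R15B, EIF2AK3 and EIF2AK4 cross 0.

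Upstream sequence is shown for 4 of the genes: for both phosphatase subunits, which differed in their change, and for CEBPG and DDIT3, whose windows hold a stress-related motif. The 250 bases before each annotated start were searched on both strands for the C/EBP-ATF composite core TGATGNAA, the cAMP response element TGACGTCA, the AP-1 motif TGANTCA, the endoplasmic reticulum stress element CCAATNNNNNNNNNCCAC and the antioxidant response element core TGACNNNGC. Each stretch lies before a start and outside annotated exons, is read 5′ to 3′ on the strand of its gene, and has the matched motifs in capitals. The sequences are from RefSeq, build GRCh38.p14, in which all 10 genes had a window (18 windows, since some genes have several starts). Shown are PPP1R15A at chr19:48872171-48872391 (plus strand), PPP1R15B at chr1:204411818-204412067 (minus strand), the second start of CEBPG at chr19:33373896-33374112 (plus strand) and the second start of DDIT3 at chr12:57520518-57520709 (minus strand).
PPP1R15A: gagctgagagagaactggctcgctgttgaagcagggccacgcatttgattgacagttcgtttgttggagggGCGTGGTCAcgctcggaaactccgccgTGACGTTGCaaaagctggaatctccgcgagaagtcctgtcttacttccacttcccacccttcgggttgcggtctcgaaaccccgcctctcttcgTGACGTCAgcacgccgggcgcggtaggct
PPP1R15B: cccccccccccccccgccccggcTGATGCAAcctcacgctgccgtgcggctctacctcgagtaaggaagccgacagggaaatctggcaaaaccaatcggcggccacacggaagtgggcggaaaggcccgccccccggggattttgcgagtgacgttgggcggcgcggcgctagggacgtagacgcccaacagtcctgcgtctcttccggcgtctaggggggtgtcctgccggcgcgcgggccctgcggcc
CEBPG: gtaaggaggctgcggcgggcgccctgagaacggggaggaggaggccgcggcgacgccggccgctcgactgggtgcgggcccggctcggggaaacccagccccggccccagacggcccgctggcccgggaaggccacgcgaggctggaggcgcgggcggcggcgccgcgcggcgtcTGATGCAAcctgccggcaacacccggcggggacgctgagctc
DDIT3: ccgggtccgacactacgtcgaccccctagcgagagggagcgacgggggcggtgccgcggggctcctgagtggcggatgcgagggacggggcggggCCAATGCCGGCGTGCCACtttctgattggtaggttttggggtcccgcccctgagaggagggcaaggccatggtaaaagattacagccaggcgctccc

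What the capitals mark differs between the genes. In PPP1R15A they are, from the left, an antioxidant response element core on the reverse strand, one on the forward strand and a cAMP response element. The CEBPG and PPP1R15B stretches hold the same 8 letters of the composite core, TGATGCAA, starting at position -42 in CEBPG and at position -227 in PPP1R15B, counted back from the annotated start. In DDIT3 the capitals are the endoplasmic reticulum stress element, starting at position -97. Over all 35116 RefSeq windows of this length, the composite core was in 3.14%, the cAMP response element in 1.65%, the AP-1 motif in 6.57%, the stress element in 0.282% and the antioxidant core in 10.9%. Outside the stretches shown, windows of ATF5, EIF2AK4 and DDIT3 held an AP-1 motif and a window of CEBPB an antioxidant core. In DDIT3 the window of the second start held it too, from position -238, before the stretch shown. The windows of ATF4, TRIB3 and EIF2AK3 held none of the 5 motifs, which says only that these letters are not in these windows.

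The whole series set the frame for these values as follows. The TPM of a sample added up to 996138 to 998797, and 14275 to 14635 genes were at 1 TPM or more. Since TPM holds no read numbers, the depth behind the values is unknown and counting intervals cannot be given. The keratin gene KRT8 lay at 564 to 620 TPM in hyperoxia and at 551 to 625.5 TPM in normoxia, and VIM, the intermediate filament of mesenchymal cells, at 2750 to 3316 TPM in hyperoxia and at 3021 to 3523 TPM in normoxia. The lung adenocarcinoma marker genes NKX2-1, NAPSA and SFTPB stayed below 1 TPM in every sample, and SFTPC and SFTPA1 were listed at 0. Of the leukocyte markers reported here, CD3E was listed at 0 throughout, PTPRC reached at most 0.03 TPM, while CD68 lay at 39.2 to 50.8 TPM in hyperoxia and at 39.4 to 50.2 TPM in normoxia. The markers of endothelium, fibroblasts and erythroid cells summed to no more than 2.09 TPM per list in hyperoxia and 1.81 TPM in normoxia.

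Both kinase genes showed no change past the test. EIF2AK4 (ENSG00000128829, chr15:39934146-40035591), the amino acid sensor GCN2, had a lowest, median and highest value of 58.9, 65.3 and 70.7 TPM in hyperoxia, against 57.6, 64.2 and 66.5 TPM in normoxia. The ranges lay almost on top of each other. Its log2 fold change was 0.04 (95% interval -0.07 to 0.14, limma adjusted p = 0.664).

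EIF2AK3 (ENSG00000172071, chr2:88556741-88627576), the endoplasmic reticulum kinase PERK, was the lowest of the 10 genes, with 2.67, 3.98 and 4.70 TPM (lowest, median and highest) in hyperoxia, against 3.49, 3.845 and 6.11 TPM in normoxia. The ranges overlapped widely, and 1 normoxia sample, replicate 4, stood above all others. The log2 fold change was -0.13 (95% interval -0.41 to 0.15, limma adjusted p = 0.5325), and neither direction was shown. The EIF2AK3 level per EIF2AK4 level within a sample did not separate the groups either. For this and the other pairs, 1 was added to each TPM before the log2 ratio was taken, which pulls ratios with a low gene toward 0. The log2 ratio of TPM + 1 averaged -3.80 ± 0.28 in hyperoxia and -3.63 ± 0.26 in normoxia (SD, n = 6 each; difference -0.17, exact two-sided permutation test, p = 0.325, 0.406 adjusted over 5 pairs).

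The other eIF2 kinases were close to these. EIF2AK1, the heme-regulated kinase HRI, averaged 80.9 ± 4.90 TPM in hyperoxia and 76.5 ± 2.37 TPM in normoxia (SD, n = 6 each; log2 fold change 0.08, limma adjusted p = 0.215). EIF2AK2, the double-stranded RNA sensor PKR, averaged 14.7 ± 1.42 TPM in hyperoxia and 12.8 ± 0.774 TPM in normoxia (SD, n = 6 each; log2 fold change 0.19, limma adjusted p = 0.0679). It did not pass with all samples, but did without hyperoxia replicate 6, its lowest hyperoxia sample (limma adjusted p = 0.0129). In the list of 12 other kinases, kinase regulators and PP1 catalytic subunits, 1 gene rose and 11 did not pass, a share of 8.33% called, against 17.3% of all tested genes. The gene that rose was PRKRA, an activator of PKR, with 44.2 ± 2.62 TPM in hyperoxia and 39.4 ± 2.69 TPM in normoxia (SD, n = 6 each; log2 fold change 0.16, limma adjusted p = 0.0496). The PRKRA call was lost in 16 of 25 alternatives, among them leaving out any one of normoxia replicates 1, 2, 4 and 5 or of hyperoxia replicates 1, 3, 4, 5 and 6 (limma adjusted p = 0.0656 to 0.101). Among the PP1 catalytic subunits, PPP1CC had the smallest p, at a log2 fold change of 0.10 (limma adjusted p = 0.154).

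The subunits of eIF2 and of its exchange factor eIF2B were nearly level, with a median log2 fold change of 0.08 over 8 genes, of which 1 rose, 1 fell and 6 did not pass. The share called was 25%, against 17.3% of all tested genes. EIF2B2, the beta subunit of the exchange factor, averaged 101.0 ± 4.27 TPM in hyperoxia and 86.2 ± 4.06 TPM in normoxia (SD, n = 6 each), without overlap between the groups (log2 fold change 0.23, limma adjusted p = 0.00179). EIF2S2, the beta subunit of eIF2 itself, averaged 251.7 ± 7.27 TPM in hyperoxia and 274.7 ± 14.5 TPM in normoxia (SD, n = 6 each; log2 fold change -0.12, limma adjusted p = 0.0336). Its call was lost in 13 of 25 alternatives, among them leaving out any one of normoxia replicates 1, 2, 3, 5 and 6 or of hyperoxia replicates 2, 3, 4 and 6 (limma adjusted p = 0.0517 to 0.0755). EIF2B1, the alpha subunit of the exchange factor, did not pass (log2 fold change 0.13, limma adjusted p = 0.106), but did without normoxia replicate 4 (limma adjusted p = 0.0327).

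ATF4 (ENSG00000128272, chr22:39519695-39522685), the central transcription factor of the response, was the most abundant of the 10 mRNAs and was slightly lower at 60% oxygen. Its lowest, median and highest values were 223, 236.5 and 254 TPM in hyperoxia, against 243, 278.9 and 298 TPM in normoxia. The groups overlapped, and 4 of the 6 hyperoxia samples lay below every normoxia sample. The mean was 237.8 ± 11.0 TPM in hyperoxia and 271.4 ± 21.8 TPM in normoxia (SD, n = 6 each), a log2 fold change of -0.19 (SE 0.05, 95% interval -0.30 to -0.08, limma adjusted p = 0.0237). RNA of a whole culture does not tell a lower level in every cell from fewer cells that express the gene. The call was lost in 6 of 25 alternatives, among them leaving out normoxia replicate 5 (limma adjusted p = 0.0518) or hyperoxia replicate 2 (limma adjusted p = 0.0527). The 4 annotated ATF4 pseudogenes were listed at no more than 0.23 TPM in hyperoxia and 0.30 TPM in normoxia.

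ATF5 (ENSG00000169136, chr19:49928702-49933935), a relative of ATF4 that is likewise translated under stress and is linked to mitochondrial stress, rose. Levels (lowest, median and highest) were 24.1, 28.9 and 32.4 TPM in hyperoxia, against 15.3, 17.0 and 20.35 TPM in normoxia. Every hyperoxia sample lay above every normoxia sample. ATF5 averaged 28.5 ± 3.22 TPM in hyperoxia and 17.2 ± 2.12 TPM in normoxia (SD, n = 6 each), a log2 fold change of 0.70 (SE 0.09, 95% interval 0.51 to 0.88, limma adjusted p = 0.000185), and the call held in all 25 alternatives. In GENCODE 29, 21.2% of the ATF5 exon bases also lie in exons of the nucleoporin gene NUP62 on the opposite strand. NUP62 was listed at 64.0 to 74.1 TPM in hyperoxia and at 58.9 to 71.7 TPM in normoxia, and without knowledge of strand in the counting its part in the ATF5 values was not tested.

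Within a sample, the amount of ATF5 mRNA per ATF4 mRNA therefore differed between the groups. The ratio of TPM was 0.0947 to 0.140 in hyperoxia and 0.0540 to 0.0826 in normoxia, with no overlap. The log2 ratio of TPM + 1 averaged -3.02 ± 0.22 in hyperoxia and -3.91 ± 0.21 in normoxia (SD, n = 6 each), a difference of 0.88 (exact two-sided permutation test over all arrangements of the 12 samples, p = 0.00216, the smallest these can give, 0.00541 adjusted over 5 pairs). ATF4 mRNA remained the more abundant of the pair in every sample.

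CEBPG (ENSG00000153879, chr19:33373330-33382686), a C/EBP family member that lacks an activation domain of its own and pairs with ATF4, was lower in every hyperoxia sample than in any normoxia sample. Its lowest, median and highest values were 69.4, 71.1 and 74.4 TPM in hyperoxia, against 80.1, 90.8 and 102.3 TPM in normoxia. CEBPG averaged 71.6 ± 2.20 TPM in hyperoxia and 89.5 ± 8.23 TPM in normoxia (SD, n = 6 each), a log2 fold change of -0.31 (SE 0.05, 95% interval -0.43 to -0.20, limma adjusted p = 0.00178). The call held in all 25 alternatives, which was not so for CEBPB and ATF4. Its hyperoxia samples also lay close together, with the highest 1.07 times the lowest, against 1.28 times in normoxia.

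CEBPB (ENSG00000172216, chr20:50190734-50192689), the C/EBP family member best known from inflammation and differentiation, was lower on average but less stable. In hyperoxia the lowest, median and highest CEBPB values were 20.7, 22.6 and 24.9 TPM, against 23.2, 27.4 and 32.9 TPM in normoxia. The groups overlapped, with 3 of 6 hyperoxia samples below every normoxia sample. CEBPB averaged 22.6 ± 1.74 TPM in hyperoxia and 27.7 ± 4.06 TPM in normoxia (SD, n = 6 each), a log2 fold change of -0.27 (SE 0.09, 95% interval -0.46 to -0.08, limma adjusted p = 0.0472). The normoxia samples did not share 1 level: replicates 1 to 3 had 28.7 to 32.9 TPM and replicates 4 to 6 had 23.2 to 26.1 TPM. The call was lost in 14 of 25 alternatives, among them leaving out any one of normoxia replicates 1, 2, 3 and 5 or of hyperoxia replicates 1, 2, 3, 5 and 6 (limma adjusted p = 0.0583 to 0.0981).

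The level of CEBPB per CEBPG did not separate the groups. The ratio of TPM ran from 0.278 to 0.344 in hyperoxia and from 0.256 to 0.361 in normoxia. The difference of the mean log2 ratios of TPM + 1 was 0.04 (exact two-sided permutation test, p = 0.634, the same when adjusted over 5 pairs), and it was -0.01 without normoxia replicate 6.

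DDIT3 (ENSG00000175197, chr12:57516588-57521737) encodes CHOP, the C/EBP family member that follows ATF4 and is tied to cell death under lasting stress. Its lowest, median and highest values were 37.2, 41.1 and 46.9 TPM in hyperoxia, against 35.1, 46.0 and 65.5 TPM in normoxia. All hyperoxia values fell inside the normoxia range. DDIT3 averaged 41.7 ± 4.43 TPM in hyperoxia and 47.55 ± 10.8 TPM in normoxia (SD, n = 6 each), and the log2 fold change of -0.16 did not pass the test (SE 0.12, 95% interval -0.43 to 0.10, limma adjusted p = 0.41). The highest normoxia sample was 1.87 times the lowest, against 1.26 times in hyperoxia. In GENCODE 29, 27.2% of the DDIT3 exon bases also lie in exons of MARS1, the methionine tRNA synthetase gene on the opposite strand, which was listed at 316 to 380.5 TPM in hyperoxia and at 312 to 541 TPM in normoxia. Both genes were highest in normoxia replicate 1, as were 25.9% of all tested genes. Within normoxia, DDIT3 was lowest in replicate 4, at 35.1 TPM with MARS1 at 414.4 TPM, and MARS1 was lowest in replicate 3. Without knowledge of strand in the counting, the part of MARS1 in the DDIT3 values was not tested.

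TRIB3 (ENSG00000101255, chr20:362835-397559) encodes a pseudokinase that is induced by ATF4 and CHOP and holds them back. Levels (lowest, median and highest) were 32.0, 36.2 and 40.3 TPM in hyperoxia, against 28.1, 40.0 and 52.8 TPM in normoxia. Like those of DDIT3, its hyperoxia values all fell inside the normoxia range. The log2 fold change was -0.07 (SE 0.13, 95% interval -0.36 to 0.22, limma adjusted p = 0.766), and without normoxia replicate 1 it was 0.02. DDIT3 per TRIB3 was 1.06 to 1.26 in hyperoxia and 1.05 to 1.44 in normoxia (difference of mean log2 ratios of TPM + 1 -0.09, exact two-sided permutation test, p = 0.245, 0.406 adjusted over 5 pairs).

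PPP1R15A (ENSG00000087074, chr19:48872392-48876057), the stress-induced phosphatase subunit GADD34, showed the largest change of the 10 genes. Its lowest, median and highest values were 36.9, 41.75 and 45.0 TPM in hyperoxia, against 18.8, 21.8 and 23.4 TPM in normoxia. The groups were far apart, with the lowest hyperoxia sample well above the highest normoxia sample. PPP1R15A averaged 41.6 ± 3.08 TPM in hyperoxia and 21.5 ± 1.63 TPM in normoxia (SD, n = 6 each), 1.94 times as high, and the log2 fold change was 0.92 (SE 0.06, 95% interval 0.79 to 1.05, limma adjusted p = 6.51e-07). The call held in all 25 alternatives. No exon of another gene overlaps its exons in GENCODE 29.

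PPP1R15B (ENSG00000158615, chr1:204403387-204411791), the constitutive counterpart CReP, was level. The PPP1R15B levels (lowest, median and highest) were 13.0, 13.7 and 14.8 TPM in hyperoxia, against 11.7, 13.7 and 14.2 TPM in normoxia. The medians were nearly equal and the log2 fold change was 0.04 (95% interval -0.08 to 0.15, limma adjusted p = 0.678).

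The difference between both subunits was tested within samples. PPP1R15A per PPP1R15B was 2.675 to 3.11 in hyperoxia and 1.499 to 1.67 in normoxia, without overlap. The log2 ratio of TPM + 1 averaged 1.52 ± 0.08 in hyperoxia and 0.63 ± 0.05 in normoxia (SD, n = 6 each), a difference of 0.89 (exact two-sided permutation test over all arrangements of the 12 samples, p = 0.00216, the smallest these can give, 0.00541 adjusted over 5 pairs). PPP1R15A was the more abundant subunit in every sample of both groups.

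**Figure D2:**
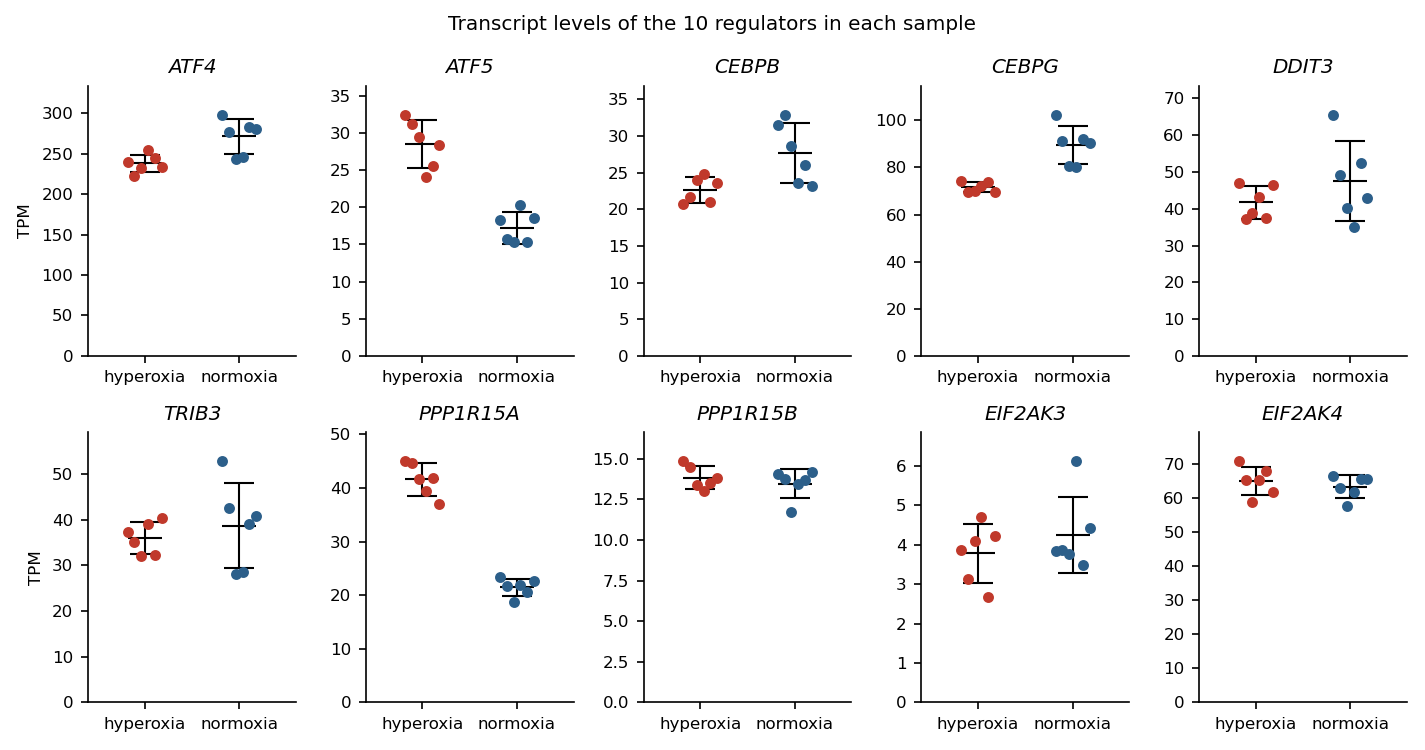
Each panel shows 1 regulator, with its level in TPM on the vertical axis from 0, a point for each of the 6 hyperoxia samples (left) and the 6 normoxia samples (right), and a bar for the mean ± SD. The groups are apart for ATF5, CEBPG and PPP1R15A, and the normoxia points of DDIT3 and TRIB3 are spread more widely than the hyperoxia points.

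**Figure D3:**
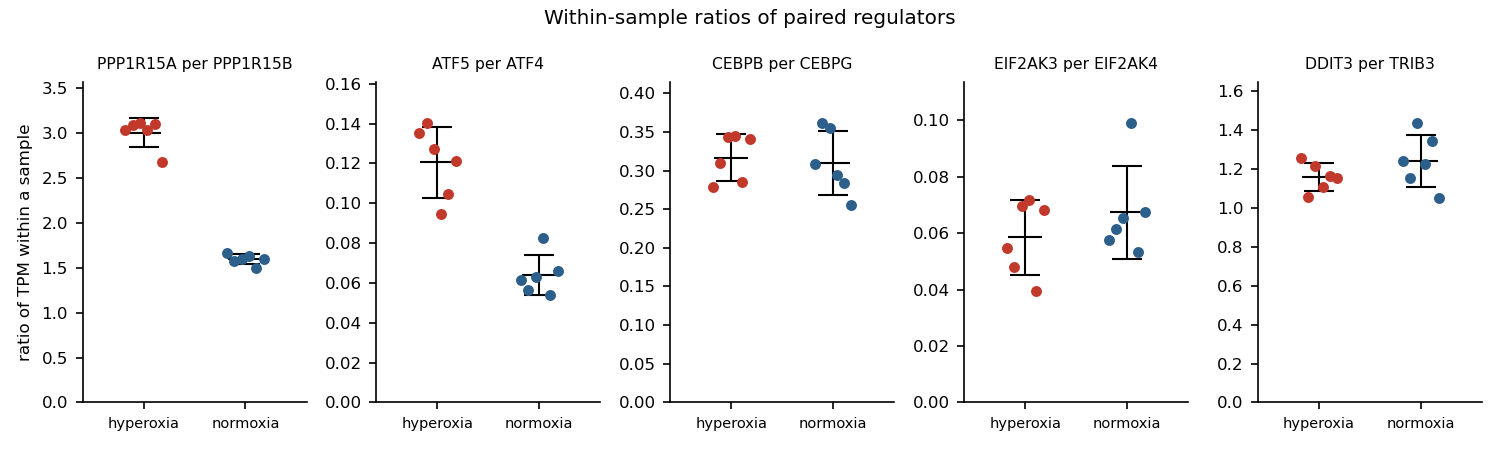
Each panel shows the ratio of the TPM of 2 regulators within each sample, hyperoxia on the left and normoxia on the right (6 samples each), with the mean ± SD. PPP1R15A per PPP1R15B and ATF5 per ATF4 are higher in every hyperoxia sample than in any normoxia sample, and the other 3 ratios overlap.

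Since TPM is scaled by transcript length, the mRNA levels of different genes can be ordered, here with both other eIF2 kinases added. In hyperoxia the order of mean levels was ATF4 (237.8 TPM), EIF2AK1 (80.9), CEBPG (71.6), EIF2AK4 (65.0), DDIT3 (41.7), PPP1R15A (41.6), TRIB3 (36.0), ATF5 (28.5), CEBPB (22.6), EIF2AK2 (14.7), PPP1R15B (13.8) and EIF2AK3 (3.78). Sample ranges of neighbours overlapped from EIF2AK1 through EIF2AK4, from DDIT3 through CEBPB, and between EIF2AK2 and PPP1R15B. In normoxia the order was ATF4 (271.4 TPM), CEBPG (89.5), EIF2AK1 (76.5), EIF2AK4 (63.3), DDIT3 (47.55), TRIB3 (38.7), CEBPB (27.7), PPP1R15A (21.5), ATF5 (17.2), PPP1R15B (13.5), EIF2AK2 (12.8) and EIF2AK3 (4.25). There the ranges of neighbours overlapped from EIF2AK4 through ATF5 and between PPP1R15B and EIF2AK2. ATF4 led and EIF2AK3 came last in both groups, and PPP1R15A stood at rank 6 in hyperoxia, against rank 8 in normoxia.

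The listed targets of ATF4 were lower at 60% oxygen as a rule. None of the 10 regulators is in these lists. Among them, DDIT3 and TRIB3, which ATF4 also switches on, did not pass the test, and the stress-induced PPP1R15A rose (log2 fold change 0.92). Of 18 ATF4 targets that make or carry amino acids, 15 fell and 3 did not pass, with a median log2 fold change of -0.50. The deposited values of SLC1A4, SLC1A5 and SLC38A2 disagreed with each other within the table, and without these the counts were 12 of 15 fallen, with a median of -0.44. PSAT1, an enzyme of serine synthesis, averaged 188.4 ± 13.4 TPM in hyperoxia and 324.3 ± 48.1 TPM in normoxia (SD, n = 6 each; log2 fold change -0.77). SLC7A5, a carrier of large neutral amino acids, averaged 203.5 ± 9.63 TPM in hyperoxia and 336.8 ± 36.6 TPM in normoxia (SD, n = 6 each; log2 fold change -0.72). Its partner chain SLC3A2 fell by 0.49 on the log2 scale.

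Of 14 other ATF4 targets 11 were tested, of which 8 fell, 1 rose and 2 did not pass, with a median log2 fold change of -0.42; NUPR1, FGF21 and INHBE were too low to test. CHAC1, which breaks down glutathione and lies downstream of ATF4 and CHOP, averaged 22.8 ± 2.79 TPM in hyperoxia and 72.5 ± 17.6 TPM in normoxia (SD, n = 6 each; log2 fold change -1.60). DDIT4, an inhibitor of mTORC1, averaged 38.6 ± 3.96 TPM in hyperoxia and 140.3 ± 39.3 TPM in normoxia (SD, n = 6 each; log2 fold change -1.80). SESN2, another brake on mTORC1, averaged 14.25 ± 1.51 TPM in hyperoxia and 26.0 ± 5.17 TPM in normoxia (SD, n = 6 each; log2 fold change -0.81). GDF15, a secreted stress cytokine, went the other way, with 12.35 ± 2.17 TPM in hyperoxia and 4.96 ± 1.88 TPM in normoxia (SD, n = 6 each; log2 fold change 1.20, limma adjusted p = 0.000656). ATF3, a repressor of the same family, had a log2 fold change of 0.40 and did not pass (limma adjusted p = 0.0542).

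The aminoacyl-tRNA synthetases under ATF4 shifted less, by a median of -0.24 on the log2 scale. Of 12 synthetase genes 9 fell and 3 did not pass. The count of 9 was 3 under the exact rank-sum test and 5 without normoxia replicates 1 to 3. The smallest p-values were those of CARS1 (log2 fold change -0.39), GARS1 (-0.38) and YARS1 (-0.29), which charge tRNA with cysteine, glycine and tyrosine. The YARS1 call was lost with an exact rank-sum test (adjusted p = 0.0559) and without normoxia replicates 4 to 6 (limma adjusted p = 0.0554). The share of tested genes called was 83.3% for the amino acid targets, 81.8% for the other targets and 75% for the synthetases, against 17.3% of all tested genes. The lists were put together with results of these samples known, so their direction is not independent evidence.

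Of 5 tested targets of CHOP 1 fell and 4 did not pass, with a median log2 fold change of 0.05. The share called, 20%, was near the 17.3% of all tested genes, so the count says nothing particular about the listed targets. The gene that fell was BBC3, which encodes the cell death protein PUMA, with 4.61 ± 0.952 TPM in hyperoxia and 6.38 ± 0.852 TPM in normoxia (SD, n = 6 each; log2 fold change -0.40, limma adjusted p = 0.0216). The BBC3 call was lost in 4 of 25 alternatives: with no filter (limma adjusted p = 0.0589), with an exact rank-sum test (adjusted p = 0.112), and without normoxia replicates 4 to 6 (limma adjusted p = 0.0803) or 1 to 3 (limma adjusted p = 0.134). TNFRSF10B, the death receptor DR5, had a log2 fold change of 0.15 (limma adjusted p = 0.2015), and BCL2, a survival gene that CHOP represses, one of 0.07 (limma adjusted p = 0.704).

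In the other arms of the unfolded protein response, run by IRE1 and ATF6, 7 of 16 tested genes fell, 1 rose and 8 did not pass, with a median log2 fold change of -0.13. The share called was 50%, against 17.3% of all tested genes, of which 5.63% were lower and 11.7% higher. HERPUD1, a part of protein removal from the endoplasmic reticulum, averaged 31.2 ± 3.06 TPM in hyperoxia and 43.8 ± 3.39 TPM in normoxia (SD, n = 6 each; log2 fold change -0.48). HSPA5, the main chaperone of that compartment, averaged 193.9 ± 14.3 TPM in hyperoxia and 255.2 ± 16 TPM in normoxia (SD, n = 6 each; log2 fold change -0.40). SDF2L1, a cofactor of that chaperone system, had a log2 fold change of -0.41. DNAJB9, a target of IRE1 and XBP1, was the gene that rose, with 8.93 ± 0.405 TPM in hyperoxia and 6.84 ± 0.443 TPM in normoxia (SD, n = 6 each; log2 fold change 0.34).

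Relatives of the regulators moved in both directions. Of 16 other C/EBP and CREB/ATF factors 14 were tested, of which 5 rose (CEBPD, BATF3, CREM, CREB3 and CREBZF), 1 fell (JDP2) and 8 did not pass. The share called was 42.9%, against 17.3% of all tested genes (11.7% higher and 5.63% lower), and the count of 6 was 2 without normoxia replicates 1 to 3. CEBPD, the delta member of the C/EBP family, averaged 18.2 ± 2.47 TPM in hyperoxia and 10.9 ± 1.79 TPM in normoxia (SD, n = 6 each; log2 fold change 0.69), opposite in direction to CEBPB and CEBPG. JDP2, a repressor that binds AP-1 and CRE sites, averaged 23.6 ± 3.21 TPM in hyperoxia and 37.4 ± 5.01 TPM in normoxia (SD, n = 6 each; log2 fold change -0.64). BATF3 had a log2 fold change of 0.35, and its call was lost without normoxia replicates 1 to 3 (limma adjusted p = 0.0668). In the list of Tribbles relatives and of the ubiquitin ligase parts that remove C/EBP and ATF4 proteins, TRIB1 rose (3.94 ± 0.395 TPM in hyperoxia and 2.58 ± 0.478 TPM in normoxia, SD, n = 6 each; log2 fold change 0.47), and COP1, BTRC and FBXW11 did not pass; TRIB2 was listed at 0 and was not tested. This 1 call among 4 tested genes is a share of 25%, against 17.3% of all tested genes, so the count says nothing particular about the list. The TRIB1 call was lost without normoxia replicates 4 to 6 (limma adjusted p = 0.0797).

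**Figure D4:**
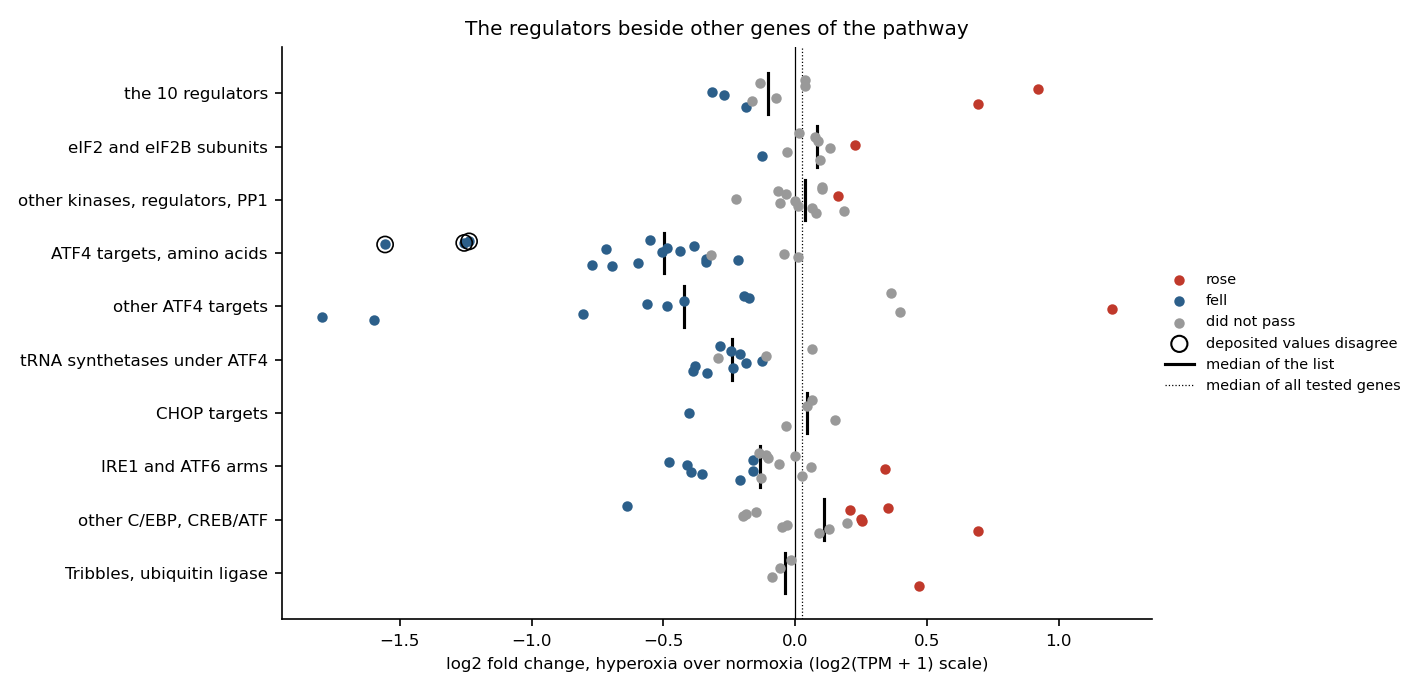
Each point is 1 tested gene, placed by its log2 fold change of hyperoxia over normoxia on the log2(TPM + 1) scale, in rows for the 10 regulators and for each list of related genes; colours give the limma call, vertical bars the list medians, and rings the 3 genes with disagreeing deposited values. The ATF4 target rows have medians of -0.50, -0.42 and -0.24, while the row of the regulators has a median of -0.10.

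Set against ATF4 mRNA in the same sample, the targets CHAC1, DDIT4 and ASNS differed between the groups, while DDIT3 and TRIB3 were close. These ratios were chosen after the values were seen and are given without a test. CHAC1 per ATF4 averaged 0.0961 ± 0.0111 in hyperoxia and 0.264 ± 0.0445 in normoxia, DDIT4 per ATF4 averaged 0.162 ± 0.0123 in hyperoxia and 0.510 ± 0.105 in normoxia, and ASNS per ATF4 averaged 1.13 ± 0.105 in hyperoxia and 1.61 ± 0.189 in normoxia (SD, n = 6 each). DDIT3 per ATF4, in contrast, averaged 0.1755 ± 0.0180 in hyperoxia and 0.174 ± 0.0276 in normoxia, and TRIB3 per ATF4 averaged 0.152 ± 0.0148 in hyperoxia and 0.141 ± 0.0236 in normoxia (SD, n = 6 each). PPP1R15A per ATF4 went the other way, with 0.175 ± 0.0176 in hyperoxia and 0.0793 ± 0.00535 in normoxia (SD, n = 6 each). CHAC1 per DDIT3 lay at 0.527 to 0.581 in hyperoxia and at 1.39 to 1.81 in normoxia. PPP1R15A per DDIT3 lay at 0.795 to 1.20 in hyperoxia and at 0.357 to 0.624 in normoxia.

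The normoxia samples differed among themselves, and most regulators and targets had their highest and lowest values in the same normoxia samples. DDIT3, TRIB3, CEBPG, ATF4, PPP1R15A and EIF2AK4 were highest in normoxia replicate 1, and 8 of the 10 genes were lowest in normoxia replicate 3 or 4. Of the 38 tested ATF4 targets of the 3 lists with agreeing deposited values, 32 were highest in normoxia replicate 1 and 37 were lowest in normoxia replicate 3 or 4. Over all tested genes, 25.9% were highest in normoxia replicate 1 and 46.1% were lowest in normoxia replicate 3 or 4. For 7 of the 10 regulators the ratio of the highest to the lowest sample was larger in normoxia than in hyperoxia. Some were near ties, such as PPP1R15A with 1.245 in normoxia and 1.217 in hyperoxia. The share over all tested genes was not computed, so this count cannot be read as particular to the regulators. The part of these sample differences in the fold changes was not tested beyond leaving samples out.

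**Figure D5:**
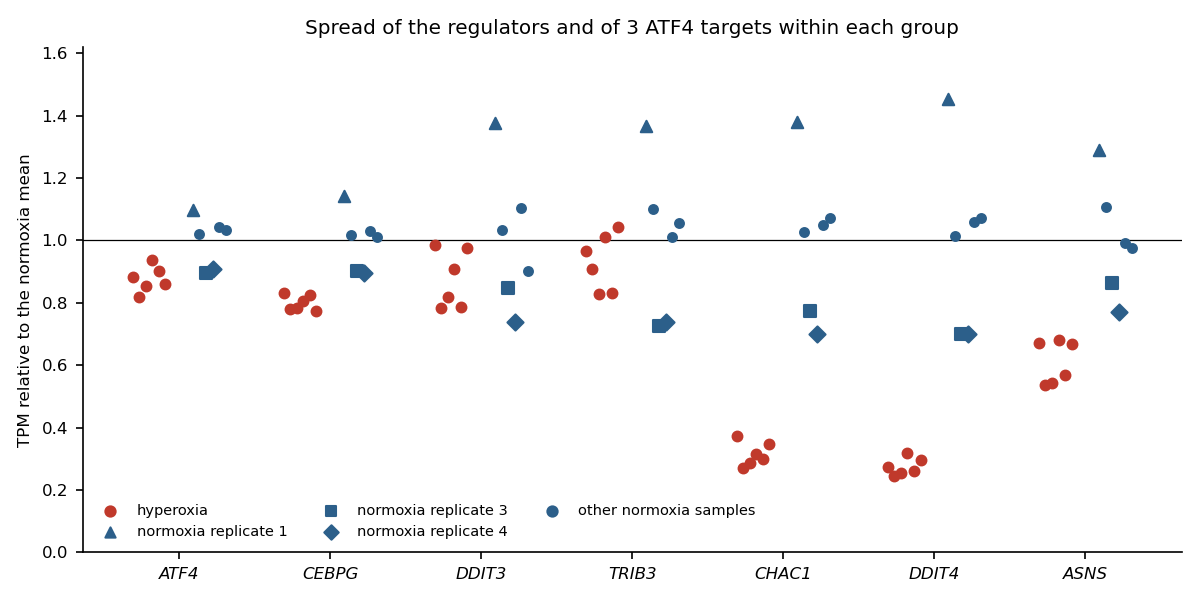
The vertical axis gives each sample's TPM divided by the normoxia mean of the gene, for 4 regulators and for the ATF4 targets CHAC1, DDIT4 and ASNS, with hyperoxia samples left of normoxia samples and separate symbols for normoxia replicates 1, 3 and 4. Normoxia replicate 1 is the highest normoxia sample and replicate 3 or 4 the lowest for each of the 7 genes, and only CHAC1, DDIT4, ASNS and CEBPG have hyperoxia samples wholly below normoxia.

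The genes nearest in pattern to each called regulator were found by the root mean square difference of log2 values, centred on each gene's mean over the 12 samples. For ATF4 these were EIF4EBP1 (0.0397), SARS1 (0.0417) and GOT1 (0.0520), against a median of 0.194 over all tested genes. For CEBPG they were XBP1 (0.0444), MTHFD2 (0.0478) and GARS1 (0.0571), against 0.238. PPP1R15A had SRXN1 (0.0912), TXNRD1 (0.0947) and GCLM (0.103) nearest, against 0.480. For ATF5 they were TERF2IP (0.113), HEXIM1 (0.1155) and MLLT11 (0.122), against 0.3895, and for CEBPB they were SUGCT (0.0812), MARCKS (0.101) and TMSB4X (0.102), against 0.2605. SRXN1 averaged 98.9 TPM in hyperoxia and 52.1 TPM in normoxia, TXNRD1 541.5 TPM in hyperoxia and 295.1 TPM in normoxia, and GCLM 25.4 TPM in hyperoxia and 11.7 TPM in normoxia. These 3 encode antioxidant proteins: sulfiredoxin, thioredoxin reductase and a subunit of glutamate-cysteine ligase. All nearest genes lie under the median by selection. The distance spans both groups, so genes of like fold change come out near, and shared control was not tested.

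The authors' deposited table gives its own fold changes for the 10 genes, with the same direction as here for all but EIF2AK4. In the authors' deposited table the fold change of hyperoxia over normoxia was 1.92 for PPP1R15A (adjusted p = 1.55e-54), 1.68 for ATF5 (adjusted p = 1.1e-20), 0.783 for CEBPG (adjusted p = 6.17e-11), 0.852 for ATF4 (adjusted p = 1.19e-05) and 0.807 for CEBPB (adjusted p = 0.00339). The authors' deposited table gives adjusted p-values of 0.152 for DDIT3, 0.529 for TRIB3, 0.817 for PPP1R15B, 0.340 for EIF2AK3 and 0.331 for EIF2AK4, for which its fold change was 0.9745. These fold changes are not the ratios of the deposited group means: in the authors' deposited table the means of EIF2AK4 were 65.0 TPM in hyperoxia and 63.3 TPM in normoxia, a ratio of 1.03. Over the 10 genes the fold change in the authors' deposited table was 0.949 to 1.03 times the ratio of its means. The authors' deposited table marks 357 genes as significant, and none of the 10 is among them. PPP1R15A and ATF5 are left unmarked there in spite of the small adjusted p-values given above. That mark therefore follows another rule than the calls made here, which rest on the adjusted p-value alone. What that rule is was not established, and what the missing mark means for these calls was not tested.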

How the data were processed

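RNA of 12 H1299 samples was sequenced. Per the labels' extraction protocol a TruSeq kit was used, but the design text gives ribosomal RNA depletion and a directional kit, so the library type and the use of strand in counting are not settled. Per the submitters' processing notes the authors used HTSeq 0.9.1 for counting and edgeR 3.16.5 for normalisation and testing; the notes list a mouse genome build although the gene identifiers are human, and the sources used here do not name the aligner, the annotation or how TPM was derived. Deposited values for each sample are in TPM, per the file headers. For each gene the authors deposited group means, a linear fold change (a ratio), the log2 of that ratio, p-values before and after adjustment, and a call. In 78 of 59577 genes the deposited log2 was not that of the deposited ratio, or a deposited mean was not that of the sample values (beyond 1e-06 on the log2 scale or 0.0001 TPM), and none of the 10 regulators is among these. The check did not set the deposited ratio against the group means, from which it differs for regulators too. A row without a gene name was left out.

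Groups came from the treatment labels. Genes with a mean of at least 1 TPM over the 12 samples (14520) were tested with limma 3.58.1 in R 4.3.3 (lmFit and eBayes, trend on) applied to log2(TPM + 1). P-values are two-sided and adjusted over these genes by Benjamini-Hochberg, with a threshold of 0.05. Fold changes on the log2(TPM + 1) scale understate the change of low genes. Ratios of 5 pairs of regulators within samples were compared by an exact permutation test over all arrangements of the 12 samples. These tests used the difference of log2(TPM + 1) values, while ratios given as ratios of TPM have nothing added. The fitting step was tested on simulated data. Loci and exon overlaps are from GENCODE 29 on GRCh38, and promoter sequences are from RefSeq on GRCh38.p14.

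The 10 regulators and the gene lists were chosen with earlier results of these data known. The text names the regulators, up to 3 tested genes of each list with the smallest p, genes set against a regulator, and the 3 nearest genes of each called regulator. GDF15, ATF3, DNAJB9, CREM, CREB3, CREBZF, FBXW11, NUP62 and MARS1 were named after their values were seen. As alternatives the test was repeated without a filter, with a minimum mean of 5 TPM, with a pseudocount of 0.1, under median-of-ratios and quantile scaling, with robust eBayes or eBayes without trend, with array weights, with a replicate block, as an exact rank-sum test, and with each sample left out in turn. Fits without normoxia replicates 1 to 3, without normoxia replicates 4 to 6 and without the 78 genes were added after seeing the data.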

Additional observations from a re-analysis of the deposited data

Results flagged for a closer look

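In 6 of 84 groups of 6 samples checked (a gene or a ratio in hyperoxia or normoxia), 1 sample stood apart from the nearest other by more than 0.625 of the range of its group; chance alone flags about 5% of such groups. PPP1R15B was lowest in normoxia replicate 3, at 11.74 TPM, with the next sample at 13.4 TPM. EIF2AK3 was highest in normoxia replicate 4, at 6.11 TPM, with the next at 4.42 TPM, and the same sample had the highest EIF2AK3 per EIF2AK4, 0.09896 with the next at 0.0674. EIF2S2 was lowest in normoxia replicate 4, at 246.6 TPM, with the next at 274.4 TPM. BBC3 was highest in normoxia replicate 1, at 8.01 TPM, with the next at 6.48 TPM. PPP1R15A per PPP1R15B was lowest in hyperoxia replicate 6, at 2.675, with the next at 3.03, and still above the highest normoxia sample at 1.67.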

How the results depend on the processing

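ATF5, CEBPG and PPP1R15A kept their calls in all 25 alternatives, and DDIT3, TRIB3, EIF2AK3, EIF2AK4 and PPP1R15B did not pass in any alternative in which they were tested (EIF2AK3 lies under the minimum mean of 5 TPM). The count of 5 regulators called, 3 of them lower, was 3 with 1 lower under no filter, under the exact rank-sum test and without normoxia replicates 1 to 3. Leaving out 1 sample gave 3 to 5 calls, 1 to 3 of them lower and 2 higher each time. TRIB3 turned to 0.0231 without normoxia replicate 1 (range over samples left out -0.1543 to 0.0231) and to 0.0045 without normoxia replicates 1 to 3; CEBPB with CEBPG turned to -0.0064 without normoxia replicate 6 (range -0.0064 to 0.0894). The cause was not tested in any of these.

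Over all genes, 818 were called lower, against 1277 under median-of-ratios scaling and 515 under the rank-sum test. Without normoxia replicates 4 to 6 the counts were 1354 called, 980 higher and 374 lower, and without normoxia replicates 1 to 3 they were 1227, 776 and 451; these fits hold fewer samples. Leaving out 1 sample gave 1958 to 2452 calls, 1317 to 1563 higher and 602 to 937 lower. Of all calls 67.5% were higher, against 50.04% (1279 higher and 1277 lower) under median-of-ratios and 54.3% (1437 and 1208) under quantile scaling. Neither scaling turned a regulator's direction, and the median over all genes was 0.03 as deposited, -0.001 under median-of-ratios and 0.01 under quantile scaling.

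Calls per list moved as follows. The subunits of eIF2 and eIF2B had 2, against 1 under no filter, eBayes without trend, the rank-sum test and without normoxia replicates 1 to 3. The other kinases and PP1 subunits had 1, against 0 under no filter, quantile scaling, eBayes without trend, the rank-sum test and both fits without 3 normoxia samples. CHOP targets had 1, against 0 under no filter, the rank-sum test and both of those fits. Tribbles relatives had 1, against 0 at a minimum of 5 TPM and without normoxia replicates 4 to 6. The synthetases had 9, against 3 under the rank-sum test and 5 without normoxia replicates 1 to 3, where the other C/EBP and CREB/ATF factors had 2 instead of 6. Leaving out 1 sample gave 1 to 3 calls for eIF2 and eIF2B and 0 to 1 for the other kinases.

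Replicate numbers are shared by both groups, but same-numbered samples did not deviate together (correlation -0.117 to 0.0169, own number best for 1 of 6). Whether same-numbered samples were handled together is not stated, and these correlations cannot exclude a small shared effect. With the replicate block, limma called 1656 genes higher and 889 lower and 4 regulators, CEBPB losing its call (adjusted p = 0.0938). The block test by sign flips of 6 pairs cannot pass for the pairs of regulators: PPP1R15A with PPP1R15B stayed at 0.8852 and ATF5 with ATF4 at 0.8828, each at an adjusted exact p of 0.0781. Depth is unknown, so the precision of low genes such as EIF2AK3 rests on the spread between samples.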
